A study of Mus musculus with 8 samples.

Results

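The 10 genes described here are the Notch receptors Notch1, Notch2, Notch3 and Notch4, the ligands Jag1, Dll1 and Dll4, and the targets Hey1, Heyl and Hes1, out of 55421 genes in a deposited table of counts. They were found by their symbols in that table, each under 1 identifier, and all 10 passed the filter on low counts. RNA with poly-A tails was sequenced from the tibiae and femurs of 8 wild-type male C57BL/6 mice, which were 15 weeks old at the start. The doxorubicin group held 4 mice injected once into the peritoneum with doxorubicin, an anthracycline that damages DNA, at 10 mg/kg. The vehicle group held 4 mice that received saline. Bones of all 8 mice were taken on day 30, after soft tissue, bone ends and spun-out marrow had been removed, and each mouse gave 1 library. The list was chosen by values of these same 8 libraries, the doxorubicin to vehicle differences seen in an earlier look at them, so that comparison is given for these genes as a description, which tests and supports nothing.

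Notch receptors are single-pass membrane proteins that are switched on by ligands on a neighbouring cell. Binding exposes the receptor to an ADAM protease and then to gamma-secretase, which frees the intracellular domain to join RBPJ and Mastermind-like proteins in the nucleus. Hes and Hey genes, which encode basic helix-loop-helix repressors, are the best known targets. In bone, Notch signalling is known to hold back osteoblast maturation and to shape the vessels, and Notch3 is known from pericytes and vascular smooth muscle while Notch4 and Dll4 are known from endothelium.

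Hey1 was the gene of this set that stood apart between the groups: each of the 4 doxorubicin libraries lay above each of the 4 vehicle libraries, with a fitted fold of 1.66. Of all tested genes, 1.64% did likewise. After adjustment DESeq2 called Hey1, while edgeR and limma-voom did not. Heyl and Notch3 had differences of like size (1.53-fold and 1.49-fold), but their groups overlapped and the size of the difference turned on single libraries. The ligands, Notch1, Notch2 and Hes1 had fitted folds of at most 1.11 between the doxorubicin and vehicle bones. The 4 receptors varied together over the 8 libraries, along with the level of GC-rich transcripts in each library. For all 4, doxorubicin 2 was the highest doxorubicin library.

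The RefSeq promoters of the 4 receptors are shown because these genes varied together. RefSeq sequences on GRCm38.p6, reaching from 250 bases before to 50 bases after an annotated start, were at hand for 7 of the 10 genes, with 8 promoters since Dll1 had a pair of starts. Hey1, Heyl and Hes1 were not matched. The RefSeq start used for Notch1 lies inside the gene as GENCODE M21 draws it. Capitals mark CACNAG on either strand, the N box to which Hes proteins are known to bind.
Notch1 promoter (chr2:26503773-26504072, minus strand): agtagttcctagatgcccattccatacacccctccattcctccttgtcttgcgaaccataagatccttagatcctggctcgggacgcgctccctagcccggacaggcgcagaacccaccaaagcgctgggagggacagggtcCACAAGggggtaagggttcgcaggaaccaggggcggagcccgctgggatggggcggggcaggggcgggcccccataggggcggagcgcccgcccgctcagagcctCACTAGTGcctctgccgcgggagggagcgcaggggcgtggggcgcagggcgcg
Notch2 promoter (chr3:98013288-98013587, plus strand): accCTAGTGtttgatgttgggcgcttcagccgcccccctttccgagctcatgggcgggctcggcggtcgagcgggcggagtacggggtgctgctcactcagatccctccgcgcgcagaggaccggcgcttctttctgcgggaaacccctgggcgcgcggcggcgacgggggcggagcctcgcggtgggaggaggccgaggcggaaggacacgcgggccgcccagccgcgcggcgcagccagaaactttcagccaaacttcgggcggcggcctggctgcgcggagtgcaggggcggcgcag
Notch3 promoter (chr17:32166841-32167140, minus strand): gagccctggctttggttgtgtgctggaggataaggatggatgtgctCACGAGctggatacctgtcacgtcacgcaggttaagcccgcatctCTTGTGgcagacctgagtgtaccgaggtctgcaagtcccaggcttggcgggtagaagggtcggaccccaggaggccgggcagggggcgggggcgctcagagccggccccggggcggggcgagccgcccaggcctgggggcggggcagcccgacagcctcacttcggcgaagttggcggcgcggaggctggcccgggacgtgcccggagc
Notch4 promoter (chr17:34564045-34564344, plus strand): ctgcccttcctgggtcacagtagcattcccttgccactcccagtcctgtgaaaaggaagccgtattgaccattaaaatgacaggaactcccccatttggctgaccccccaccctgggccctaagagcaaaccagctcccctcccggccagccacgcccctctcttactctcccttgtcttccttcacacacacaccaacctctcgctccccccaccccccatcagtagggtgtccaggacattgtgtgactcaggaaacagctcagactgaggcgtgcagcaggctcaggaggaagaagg
Of the 8 promoters, 5 held CACNAG, against 42.5% of all 32851 promoters of the same length. The match at -108 in the Notch1 promoter stood alone, while those at -3 and -1 overlapped on opposite strands, which makes the single run of 8 capitals near its end. Notch2 had its match at -247, and Notch3 had its matches at -204 and -159. Dll4 held CACTAG at -75 and the upstream Dll1 promoter CACCAG at 14, and the Notch4, Jag1 and downstream Dll1 promoters held none. TGGGAA, the core of the RBPJ site, was found on neither strand in any of the 8 promoters, against 25.6% of all promoters. CACGTG, a form of the E box, was likewise found in 0, against 7.15%, and other forms of the E box were not searched for. GC content was 73.0% in the Notch2, 70.0% in the Notch3, 68.3% in the Notch1 and 58.3% in the Notch4 promoter, against a median of 52.7% over all promoters. The Notch2 promoter held 41 CG dinucleotides and that of Notch4 held 5, against a median of 7.

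Library totals ran from 23699525 to 35747083 counts. The bone label was checked on Col1a1, the main bone collagen (1272 to 6119 CPM in doxorubicin and 1080 to 3181 CPM in vehicle libraries), and on Mepe of osteocytes (101 to 203 CPM in doxorubicin and 109 to 147 CPM in vehicle libraries). Dmp1, also of osteocytes, had 113 to 239 CPM in doxorubicin and 138 to 630 CPM in vehicle libraries. CPM are counts relative to the library total, scaled by TMM, a method that adjusts for library composition. Marrow had been spun out, but the 11 neutrophil genes summed to between 10753 and 21912 CPM in doxorubicin and between 13276 and 23456 CPM in vehicle bones. The 12 endothelial genes, none of them at 0 in any library, summed to between 331 and 415 CPM in doxorubicin and between 307 and 394 CPM in vehicle bones. The 10 genes of mural cells, which wrap vessels, summed to 519 to 706 CPM in doxorubicin and 487 to 668 CPM in vehicle bones. The 10 skeletal muscle genes summed to 13584 to 33848 CPM in doxorubicin and 4266 to 24372 CPM in vehicle bones. In whole bones, fewer cells of a type and less RNA per cell cannot be told apart.

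Among the ligands, Jag1, which osteoblasts and endothelium can present, had 18.7, 23.3, 14.5 and 17.3 CPM in doxorubicin bones, against 19.1, 19.1, 18.3 and 16.0 CPM in vehicle bones. The doxorubicin group held both the highest and the lowest Jag1 library, and its mean was 18.4 ± 3.66 CPM against 18.1 ± 1.45 CPM in vehicle (SD, n = 4 each). Its log2 fold change of doxorubicin over vehicle was 0.03 ± 0.15 (SE), and -0.14 without doxorubicin 2. Dll4, the ligand of sprouting and arterial endothelium, had 3.96, 4.72, 4.41 and 3.99 CPM in doxorubicin bones, against 5.66, 3.27, 3.17 and 3.27 CPM in vehicle bones. Each doxorubicin library of Dll4 lay above 3 of the 4 vehicle libraries and below vehicle 1. Its log2 fold change was 0.16 ± 0.21 (SE) and became 0.40 without vehicle 1 and 0.03 without vehicle 3. Dll1, known for steering lymphoid cell fate, was the lowest ligand, at 2.83, 3.06, 2.77 and 2.13 CPM in doxorubicin and 3.71, 2.71, 1.29 and 2.80 CPM in vehicle bones. The Dll1 vehicle libraries enclosed all 4 doxorubicin libraries, and its log2 fold change of 0.05 ± 0.29 (SE) was -0.23 without vehicle 3, -0.05 without doxorubicin 2 and 0.27 without vehicle 1.

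Among the receptors, Notch2, which also acts in osteoclast and B cell development, was the most abundant, at 77.4, 104, 88.1 and 81.9 CPM in doxorubicin bones and 88.2, 72.6, 82.0 and 104 CPM in vehicle bones. Doxorubicin 2 and vehicle 4 were the highest libraries of their groups, and the ranges nearly coincided. Notch1, the receptor best known from T cell and arterial fate, had 33.6, 46.8, 39.6 and 36.6 CPM in doxorubicin bones, against 40.8, 30.0, 30.6 and 49.1 CPM in vehicle bones. Its highest libraries were again doxorubicin 2 and vehicle 4. The log2 fold change was 0.06 ± 0.18 for Notch1 and 0.02 ± 0.14 for Notch2 (SE). Both turned negative when doxorubicin 2 was left out (-0.07 and -0.10), and also without vehicle 2 or vehicle 3.

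Notch3 had 16.1, 34.0, 18.9 and 22.9 CPM in doxorubicin bones, against 11.7, 7.47, 13.9 and 28.7 CPM in vehicle bones. Vehicle 4 lay above 3 of the 4 doxorubicin libraries, whereas the other vehicle libraries lay below all of them. The log2 difference, 0.57 ± 0.39 (SE), grew to 1.04 when vehicle 4 was left out, and shrank to 0.29 when doxorubicin 2 was left out and to 0.33 for vehicle 2. Notch4 had 6.74, 10.7, 6.12 and 6.38 CPM in doxorubicin and 7.16, 4.15, 4.11 and 8.91 CPM in vehicle bones. The vehicle libraries of Notch4 fell into a pair near 4 CPM and a pair at 7 CPM or more, with 3 of the doxorubicin libraries between them. The log2 fold change of Notch4 was 0.30 ± 0.29 (SE), with 0.52 without vehicle 4, 0.15 without vehicle 2, 0.11 without vehicle 3 and 0.05 without doxorubicin 2.

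Hey1, a target of Notch in endothelium and in cells of the osteoblast line, had 8.09, 7.84, 7.87 and 5.82 CPM in doxorubicin bones, against 4.91, 3.69, 5.08 and 4.15 CPM in vehicle bones. The lowest doxorubicin library stood 0.74 CPM above the highest vehicle library, and the groups did not overlap under library size scaling either. The means were 7.40 ± 1.06 CPM in doxorubicin and 4.46 ± 0.652 CPM in vehicle (SD, n = 4 each), and the log2 fold change was 0.73 ± 0.16 (SE). It stayed between 0.64 and 0.83 with any 1 library left out. The counts behind these values were 186, 261, 239 and 134 in doxorubicin and 131, 79, 200 and 123 in vehicle libraries.

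Heyl, a relative of Hey1 known from vascular smooth muscle, had 5.87, 12.1, 8.27 and 5.08 CPM in doxorubicin bones, against 6.89, 4.99, 5.03 and 3.75 CPM in vehicle bones. Doxorubicin 2 and 3 lay above all vehicle libraries and doxorubicin 1 and 4 among them. The log2 fold change of 0.61 ± 0.29 (SE) was 0.29 without doxorubicin 2, 0.45 without vehicle 4 and 0.78 without vehicle 1. Hes1, the most widely expressed of these repressors, had 11.6, 11.2, 8.33 and 8.94 CPM in doxorubicin and 12.9, 7.93, 9.72 and 9.25 CPM in vehicle bones. Its groups covered nearly the same range, with a log2 fold change of 0.01 ± 0.18 (SE), 0.16 without vehicle 1 and -0.10 without vehicle 2. The plot of CPM by library shows the 3 targets side by side.

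**Figure D1:**
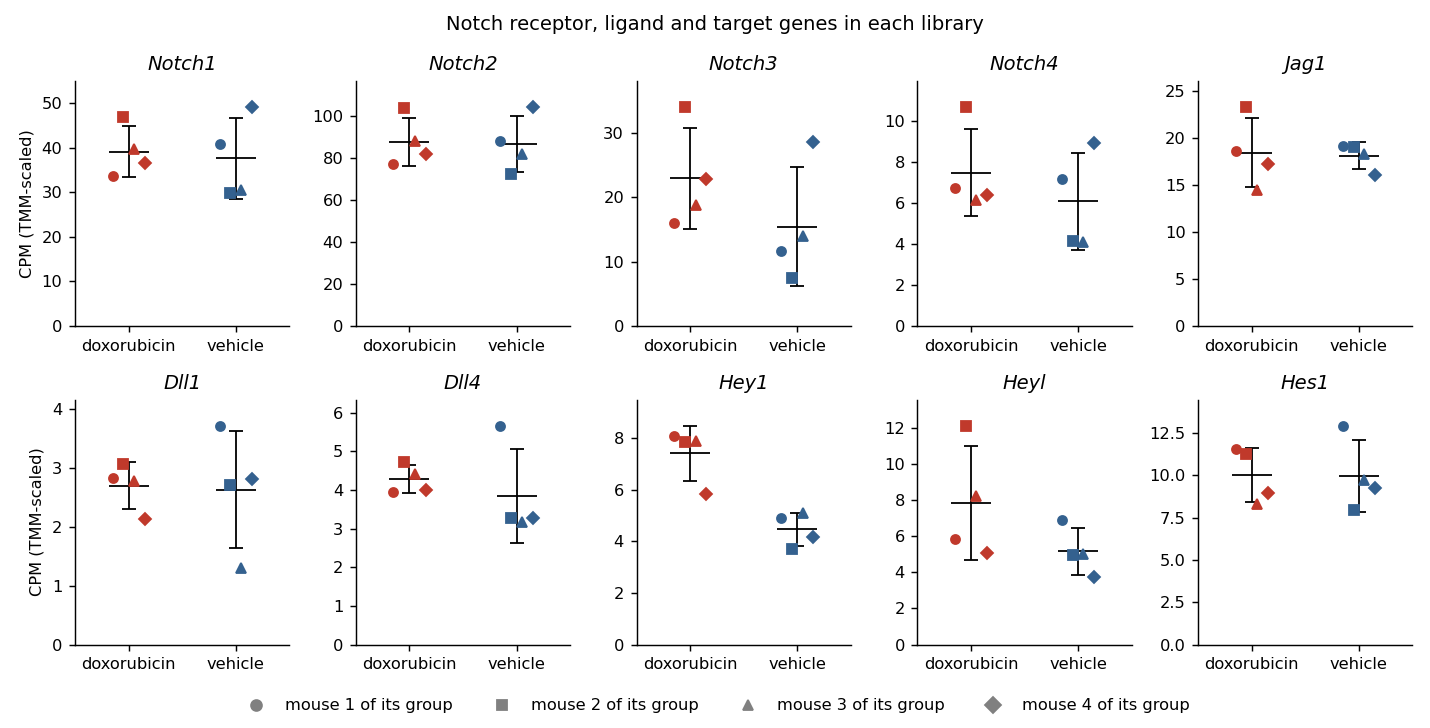
CPM scaled by TMM (y axis, from 0) of each of the 10 genes in 4 doxorubicin libraries (left, red) and 4 vehicle libraries (right, blue), with black lines for mean ± SD and marker shapes for the mouse number within its group, which pairs no mice. Hey1 is the panel where the groups do not overlap, with 5.82 CPM as the lowest doxorubicin and 5.08 CPM as the highest vehicle library.

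All 10 genes had a log2 fold change above 0, with a median of 0.11, where the median of all 17035 tested genes was 0.04 and 57.2% of them lay above 0. That count was 7 with library size as the only scaling, under which the median of all genes was -0.02 and Notch2, Jag1 and Hes1 lay below 0. It was 5 without doxorubicin 2, 5 without vehicle 3, 7 without vehicle 2 and 8 without vehicle 4. Hey1 was the 1 gene of the set whose groups did not overlap with doxorubicin higher, against 1.64% of all tested genes, and 0 of the 10 did so with doxorubicin lower, against 1.95%. At an unadjusted p under 0.05 in edgeR's quasi-likelihood test the set held 1 gene, Hey1, against 5.36% of tested genes (2.13% higher and 3.23% lower in doxorubicin). After adjustment, at the same threshold, edgeR called 0 of the 10 genes, against 0% of tested genes, with 913 tested genes at an unadjusted p under 0.05. DESeq2 called 29 genes, 0.17% of those tested, with Hey1 among them just under the threshold (DESeq2 adjusted p = 0.0491). Hey1 had an adjusted p of 0.703 in edgeR and of 0.798 in limma-voom, which did not call it. Since this contrast chose the genes, nothing is read from these counts.

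**Figure D2:**
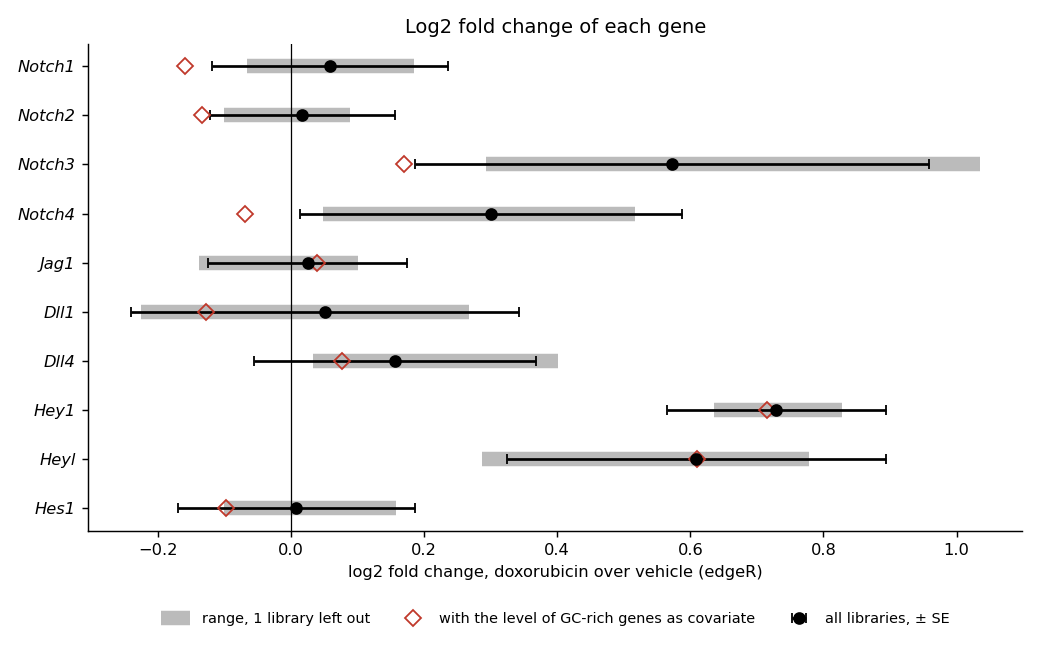
Log2 fold change of doxorubicin over vehicle (x axis) for each gene, with black points and bars for edgeR's estimate ± SE over 8 libraries, grey bands for the range with 1 library left out, and open red diamonds for the estimate with the library level of GC-rich genes as a covariate. Hey1 lies between 0.64 and 0.83 in its band, and its diamond is at 0.71, whereas that of Notch4 is at -0.07.

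Levels of different genes were compared as CPM per kilobase of exon, with exons joined over all transcripts of GENCODE M21 on GRCm38. Notch2 was highest at 8.14 ± 1.06 in doxorubicin and 8.04 ± 1.23 in vehicle bones (CPM per kilobase, SD, n = 4 each). Hes1 followed at 4.92 ± 0.796 and 4.89 ± 1.04, and Jag1 at 3.16 ± 0.628 and 3.11 ± 0.250, each in doxorubicin and vehicle bones. Notch2 exceeded Hes1, and Hes1 exceeded Jag1, in 8 of 8 libraries. Notch1, Notch3 and Hey1 came next, with means over all libraries of 2.70, 2.38 and 1.82 CPM per kilobase. In doxorubicin bones Notch3 averaged 2.84 and Notch1 2.75, whereas in vehicle bones Notch3 averaged 1.91 and Notch1 2.64, so their order differed between the groups. Jag1 lay above Notch1 in 6 libraries, Notch1 above Notch3 in 5 and Notch3 above Hey1 in 4, so these neighbours did not differ beyond their spread. Hey1 lay above Heyl in 8 of 8 libraries. Heyl, Dll4, Notch4 and Dll1 closed the order at 1.27, 1.05, 0.841 and 0.631 CPM per kilobase, each above the next in 5, 6 and 7 libraries in turn. With the longest transcript in place of joined exons, Notch2 exceeded Hes1 in 6 of 8 libraries, while Hes1 over Jag1 and Hey1 over Heyl still held in 8 of 8. Those last pairs were no longer neighbours in that order, in which 1 pair of neighbours, Hes1 over Notch1, differed in every library in place of 3. For Notch1, whose 11 annotated transcripts join to 14232 bases against 9488 bases for the longest, the level was then 4.05 in place of 2.70 CPM per kilobase.

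**Figure D3:**
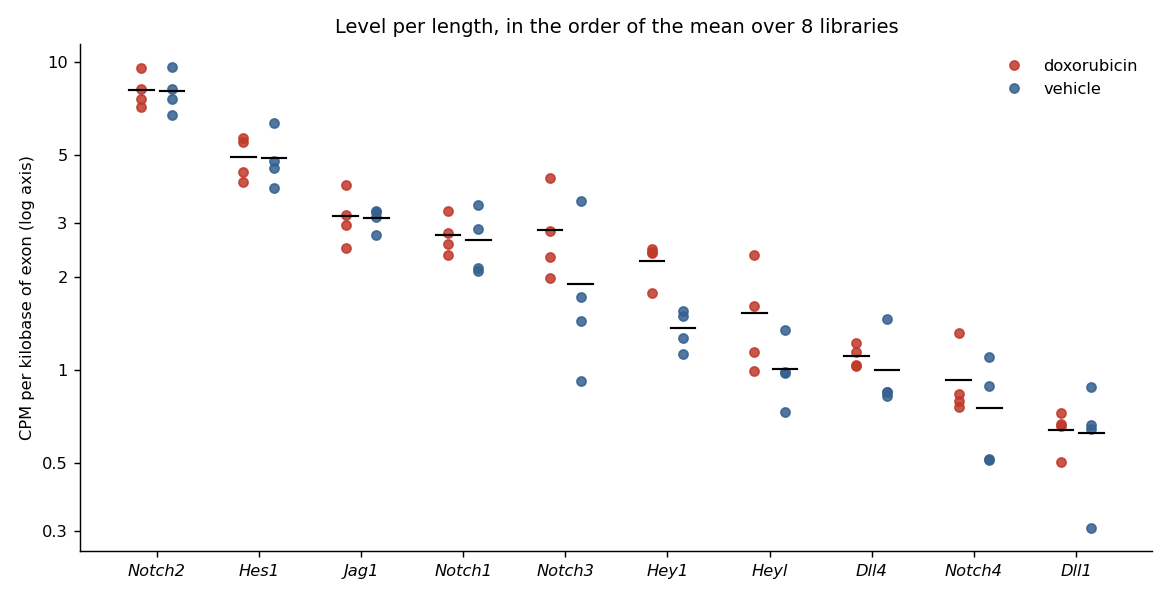
CPM per kilobase of joined exons (y axis, log scale) in each library for the 10 genes, ordered by the mean over 8 libraries, with doxorubicin in red on the left, vehicle in blue on the right and short black lines for group means. Notch2 at 8.14 and 8.04 and Hes1 at 4.92 and 4.89 lead the order in the doxorubicin and vehicle bones.

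Within the summed per-kilobase level of the 4 receptors, Notch3 took 16.1%, 22.8%, 16.6% and 20.5% in doxorubicin libraries, against 10.8%, 8.98%, 14.4% and 20.0% in vehicle libraries. Vehicle 4 lay within the doxorubicin range and the other 3 vehicle libraries below it. Notch2 took 55.9% ± 2.86 in doxorubicin and 61.1% ± 4.83 in vehicle (SD, n = 4 each), Notch1 took 18.9% ± 0.821 in doxorubicin and 19.8% ± 1.51 in vehicle, and Notch4 took 6.27% ± 0.837 in doxorubicin and 5.53% ± 1.10 in vehicle. These shares need no scaling between libraries, but they use the same counts as the fold changes above.

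The receptors varied together across libraries. Over 8 libraries, the 6 pairs of receptors had Pearson r between 0.77 and 0.94, and between 0.76 and 0.95 once each group was centred on its own mean. Doxorubicin 2 was the highest doxorubicin library for each receptor. In doxorubicin 1, 3 and 4, Notch4 (6.74, 6.12 and 6.38 CPM) ran opposite to Notch1 (33.6, 39.6 and 36.6 CPM). Correlation inside each group alone was not computed. The other 39 pairs of the 10 genes ran from r of -0.000879 to 0.71, with a median of 0.31. Without the 2 libraries farthest from the median of a pair's first gene, receptor pairs ran from 0.50 to 0.89 and the other pairs from -0.70 to 0.91 (Dll4 with Hey1 the highest), so the ranges then overlapped. Of all 45 pairs, 1 passed an adjusted p of 0.05 in exact permutation tests over the libraries, Notch1 with Notch2 (r = 0.94, p = 0.000868, adjusted p = 0.0391, rho = 0.93). By rho, 0 of the 45 passed. Without the 2 libraries farthest from the median of Notch1 (vehicle 2 and vehicle 4), r was 0.88 (exact permutation p = 0.0153). That call was lost without any 1 library other than vehicle 3, with r between 0.91 and 0.95. Hey1 with Heyl had r of 0.70 (exact permutation p = 0.0484, adjusted p = 0.273), which was 0.53 after centring on the group means.

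Libraries also differed in the level of GC-rich transcripts. The tenth of tested genes with the highest GC content in the longest transcript (57.4% or more, 1666 genes) had a median deviation from the genes' own means of 0.10, 0.17, 0.03 and 0.06 in doxorubicin libraries, against -0.01, -0.31, -0.24 and 0.23 in vehicle libraries, on the log2 scale. The doxorubicin libraries all lay above 3 of the 4 vehicle libraries and 4 of 4 below vehicle 4. GC content of the longest transcript was 61.2% for Notch4, 59.6% for Notch3, 57.1% for Notch1 and 53.6% for Notch2, which put them above 98.0%, 95.6%, 88.8% and 73.2% of tested genes. Notch3 and Notch4 are thus themselves among the GC-rich genes. Hey1 stood at 52.6% and Heyl at 55.2%. Across the 8 libraries, the level of GC-rich genes correlated with Notch4 (r = 0.92, rho = 0.81), Notch3 (r = 0.86, rho = 0.88), Notch1 (r = 0.85, rho = 0.76) and Notch2 (r = 0.74, rho = 0.60). The exact permutation p, adjusted over the 10 genes, was 0.0293 for r of Notch4, Notch3 and Notch1 and 0.0923 for Notch2, and 0 of the 10 passed by rho. Without vehicle 2 and vehicle 3, the libraries farthest from the median, r was 0.74 for Notch4, 0.81 for Notch3, 0.61 for Notch1 and 0.66 for Notch2, and over these 6 libraries none had an exact permutation p under 0.05 (the lowest was 0.0556). With 1 library left out, none of the 3 calls was kept without vehicle 2 or without doxorubicin 2, 3 or 4. Their r stayed between 0.83 and 0.95 without doxorubicin 2, 3 or 4, and was 0.90 for Notch4, 0.73 for Notch3 and 0.79 for Notch1 without vehicle 2. Hey1 had r of 0.48 (rho = 0.36) with the same measure and Heyl 0.22 (rho = 0.14). Without vehicle 4, r was 0.85 for Hey1, which then passed (adjusted exact permutation p = 0.0357), and 0.66 for Heyl, which did not (adjusted exact permutation p = 0.169).

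With the level of GC-rich genes as a covariate in edgeR, a fit added after the data were seen, the log2 fold change was -0.07 ± 0.18 for Notch4, 0.17 ± 0.28 for Notch3, -0.16 ± 0.12 for Notch1 and -0.13 ± 0.11 for Notch2 (SE). Those of Hey1 and Heyl were 0.71 ± 0.19 and 0.61 ± 0.38 (SE), close to 0.73 and 0.61 without the covariate. The covariate was 0.03 to 0.17 in doxorubicin libraries and -0.31, -0.24, -0.01 and 0.23 in vehicle libraries, so no vehicle library lay within the doxorubicin range. Notch3 and Notch4 are also among the genes that define it. Vehicle libraries lay on both sides of that range, so the fit separates the level of GC-rich genes from the group only in part. Nothing is read from it for any of these genes.

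**Figure D4:**
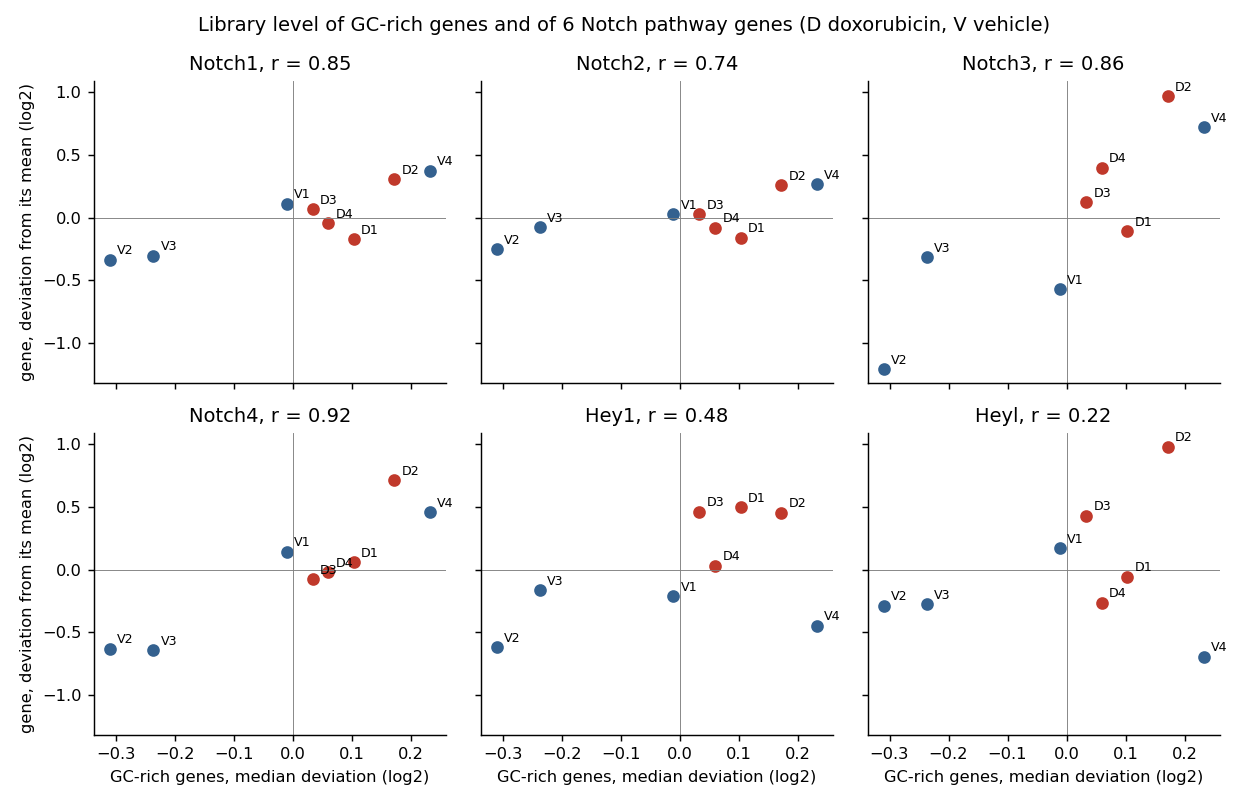
Deviation of 6 genes from their mean log2 CPM (y axis) against the median deviation of 1666 GC-rich genes (x axis, log2) in each library, with doxorubicin (D) in red and vehicle (V) in blue. The receptors follow the x axis (r between 0.74 and 0.92). For Hey1, the doxorubicin libraries lie above the vehicle libraries on the y axis. On the x axis no vehicle library falls within the doxorubicin range (0.03 to 0.17).

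The genes were also set against the mean log2 CPM of 8 lists of marker genes, which gave 80 relations. In exact permutation tests 0 of the 80 passed an adjusted p of 0.05 by r, 0 passed by rho, and 9 had an unadjusted p under 0.05 by r. Of the 8 lists, the receptors lay nearest to endothelial genes such as Pecam1 and Cdh5. There r was 0.87 for Notch4 (rho = 0.90, adjusted p = 0.0833) and 0.83 for Notch1 (rho = 0.88, adjusted p = 0.185). It was 0.82 for Notch2 (rho = 0.74, adjusted p = 0.199) and 0.60 for Notch3 (rho = 0.60, adjusted p = 0.497), each adjusted p from exact permutations of r. With the level of GC-rich genes, r was 0.92 for Notch4, 0.85 for Notch1, 0.74 for Notch2 and 0.86 for Notch3. The part of that level in the endothelial relations was not tested. Without doxorubicin 2 and vehicle 1, the libraries farthest from the median of the endothelial list, r was 0.85 for Notch4, 0.92 for Notch1 and 0.86 for Notch2. Jag1 lay nearest to osteocyte genes (r = 0.84, rho = 0.90, exact permutation p = 0.00236, adjusted p = 0.0942), and r was 0.82 without doxorubicin 1 and 2. Hes1 lay nearest to osteoblast genes (r = 0.85, rho = 0.86, exact permutation p = 0.00880, adjusted p = 0.185), and r was 0.89 without the same libraries. Notch3 had r of 0.09 with mural genes (rho = 0.19, exact permutation p = 0.834). That r was -0.13 once groups were centred and -0.39 without vehicle 3 and doxorubicin 2.

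Hey1 ran against the megakaryocyte genes (r = -0.76, rho = -0.74, exact permutation p = 0.0250, adjusted p = 0.286), and r was -0.78 without doxorubicin 1 and vehicle 3 and -0.26 once groups were centred. With osteoblast genes Hey1 had r of 0.60 (rho = 0.43, exact permutation p = 0.123, adjusted p = 0.497). That r was 0.73 once groups were centred and 0.11 without doxorubicin 1 and doxorubicin 2. All 11 megakaryocyte genes had a log2 fold change below 0, with a median of -0.53 and a summed level of 877 to 1397 CPM in doxorubicin against 1350 to 2072 CPM in vehicle bones. The part of megakaryocyte RNA in the Hey1 difference was not tested. Endothelial genes had a median log2 fold change of 0.05 with 7 of 12 above 0, arterial genes one of 0.18 with 5 of 7 above 0, and osteoblast genes one of 0.34 with 9 of 11 above 0. Medians were 0.17 for mural genes (9 of 10 above 0) and 0.23 for osteocyte genes (6 of 8). Other lists lay farther from 0, at 1.02 for chondrocyte genes (5 of 6), 0.69 for adipocyte genes (5 of 7) and 0.38 for skeletal muscle genes (10 of 10). Macrophage and osteoclast genes had a median of 0.37 (7 of 9), erythroid genes -0.37 (0 of 10) and immediate early genes -0.52 (1 of 10). Nor was the part of any of these in the Hey1 difference tested. The groups overlapped in the summed level of each of these lists.

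**Figure D5:**
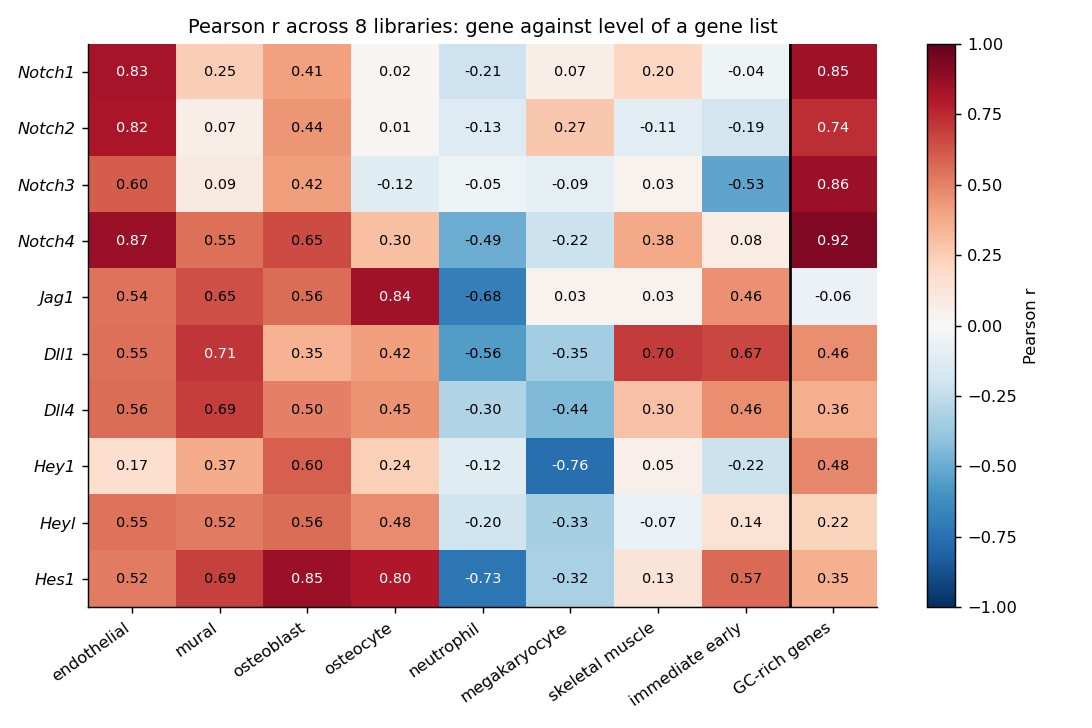
Pearson r over 8 libraries (colour, from -1 in blue to 1 in red) between the log2 CPM of each gene (rows) and the mean log2 CPM of 8 marker lists, with the level of GC-rich genes in the last column. Receptors have r between 0.60 and 0.87 with endothelial genes and between 0.74 and 0.92 with GC-rich genes.

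The rest of the pathway was described by 83 further genes in 6 lists, of which 76 were tested. In edgeR's quasi-likelihood test 0 of the 76 passed an adjusted p of 0.05, the lowest adjusted p being 0.856, and DESeq2 called 0. At an unadjusted p under 0.05, 1 gene was higher and 3 were lower in doxorubicin, against 2.13% and 3.23% of all tested genes. The groups did not overlap for 1 of the 76 with doxorubicin higher and 2 with doxorubicin lower, against 1.64% and 1.95% of all tested genes. The median log2 fold change of the 76 was 0.06, with 46 above and 30 below 0, beside 0.04 for all tested genes.

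Among the genes of receptor cleavage, Adam10, the protease of the first cut in ligand-driven activation, had 141, 158, 174 and 141 CPM in doxorubicin bones, against 184, 206, 235 and 175 CPM in vehicle bones. The groups did not overlap, though doxorubicin 3 and vehicle 4 nearly met. Its log2 fold change was -0.38 ± 0.13 (SE, edgeR adjusted p = 0.856). Aph1a, a subunit of gamma-secretase, had 34.3, 32.4, 37.5 and 32.0 CPM in doxorubicin and 30.6, 23.3, 25.5 and 31.7 CPM in vehicle bones, with a log2 fold change of 0.29 ± 0.12 (SE, edgeR adjusted p = 0.856). Aph1a groups also stood apart, by less than 1 CPM. The subunits Psenen and Ncstn had log2 fold changes of 0.13 (0.06 without vehicle 4) and 0.06 (-0.04 without vehicle 3). Furin, which cuts receptors on their way to the surface, had 0.32 ± 0.22 (SE), with 0.15 without vehicle 2 and 0.49 without vehicle 4, and the list as a whole had 6 of 10 above 0 with a median of 0.05.

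Among further targets, Myc had 15.7, 20.1, 17.3 and 14.5 CPM in doxorubicin and 47.7, 26.7, 17.4 and 18.8 CPM in vehicle bones. Vehicle 1 carried much of that difference, since the log2 fold change of -0.71 ± 0.29 (SE, edgeR adjusted p = 0.856) was -0.31 without it. Nrarp, a target that feeds back on Notch, had a log2 fold change of -0.28 ± 0.19 and Hey2, the third Hey gene, of 0.29 ± 0.27 (SE). Nrarp was at -0.45 when vehicle 3 was left out and at -0.14 when vehicle 1 was, and Hey2 at 0.15 when doxorubicin 4 was left out and at 0.47 when vehicle 3 was. Of the 10 tested targets, 5 lay above and 5 below 0, with a median of -0.08, and Hes2, Hes3, Hes5 and Hes7 did not pass the filter, with at most 20 counts in a library. All 5 tested further ligands and Notch-binding proteins lay above 0 (median 0.28), with Mfap2, a microfibril protein that can bind Notch ligands, at 0.50 ± 0.22 and Jag2 at 0.19 ± 0.39 (log2, SE). That direction rested on single libraries for Jag2, at -0.14 without vehicle 3, and for Cntn1, at -0.09 without doxorubicin 1. The median of the 5 was 0.11 without doxorubicin 1 and 0.48 without doxorubicin 3. Dll3, Dlk1 and Dlk2 had at most 8 counts in a library and were not tested.

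Among the nuclear partners, Rbpj, the DNA-binding partner of cleaved Notch, had a log2 fold change of 0.03 ± 0.09 (-0.04 without vehicle 3), and of the 20 genes 10 lay above and 10 below 0, between -0.23 (the coactivator Maml2) and 0.24 (the corepressor Tle2, at 0.07 without vehicle 2 and 0.50 without vehicle 4). The 11 enzymes that add sugars to Notch lay between -0.08 (Gxylt1) and 0.15 (Xxylt1), with Lfng and Mfng, Fringe enzymes that tune ligand choice, both at 0.07 and both at -0.04 without doxorubicin 2. Of the 20 genes of receptor and ligand turnover 13 lay above 0, with a median of 0.12. Bmp2k, a kinase related to the endocytic kinase Aak1, had 50.9, 56.2, 60.2 and 53.8 CPM in doxorubicin bones, against 68.7, 63.3, 71.8 and 64.7 CPM in vehicle bones. Those groups did not overlap, with a log2 fold change of -0.28 ± 0.10 (SE, edgeR adjusted p = 0.856).

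By Pearson r of log2 CPM over the 8 libraries, the genes most like Hey1 among 14783 compared were Myrip (r = 0.98), Pgpep1 and Wdr19 (both 0.95). Trim62, Cd300lg and Nynrin followed Notch3 most closely (r of 0.99, 0.99 and 0.98). Slc4a2, Col4a2 and Dvl3 did so for Notch4 (0.99, 0.99 and 0.98), and Taok2 and Prrc2a were among the nearest to Notch1 (0.99 and 0.98). Col6a1 and Col6a2 were among the nearest to Dll1 (0.99 and 0.94), and nearest to Hes1 were Chd6, Trip6 and Adcy4 (0.97 each). With this many genes and 8 libraries, an r of this size is a description only.

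Positions on GRCm38 from GENCODE M21, whose identifiers matched those of all 10 genes with their versions, were chromosome 2 for Notch1 (26457903 to 26516663), Jag1 (137081456 to 137116644) and Dll4 (119325784 to 119335962). Chromosome 3 holds Hey1 (8663359 to 8667256) and Notch2 (98013527 to 98150361), and chromosome 17 holds Dll1 (15367354 to 15376872), Notch3 (32120820 to 32166852) and Notch4 (34564268 to 34588503). Heyl lies on chromosome 4 (123233556 to 123249875) and Hes1 on chromosome 16 (30064384 to 30067796). Exons of 5 of the genes overlap those of another gene, so their counts are uncertain by the share of it. Gm14207, antisense to Dll4, had counts of 5.89% of those of Dll4, Gm42820, on the strand of Notch2, of 4.02%, and 0610009E02Rik, antisense to Notch1, of 1.45%. Gm17276, antisense to Notch3, reached at most 3 counts, and A930024N18Rik, which overlaps Dll1, was not analysed here.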

How the data were processed

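The deposited table holds counts per gene for 8 libraries. Its unit was taken to be expected counts as the authors deposited them, all whole numbers, rounded before the tests with no effect. Per the submitters' processing notes, STAR 2.5.3a, RSEM 1.3.0 and the build GRCh38 were named, with no role given, although the identifiers are those of mouse genes. Not given in the sources used here are the annotation, the filters and whether strand and unique molecular identifiers entered the counting. Per the labels' protocols, the kit selected poly-A RNA and kept strand, with 1 library for each mouse. All 8 columns matched a sample by its label. No 2 libraries were alike within sampling noise (28 pairs, chi-square over its degrees of freedom at least 29.0).

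Genes were kept by filterByExpr (minimum count 10, minimum total 15), scaled by TMM and tested by edgeR 4.0.16 in R 4.3.3 (robust quasi-likelihood, two-sided, Benjamini-Hochberg over 17035 genes, threshold 0.05), and checked on simulated data. SE came from the F statistic. DESeq2 1.42.0 and limma 3.58.1 (voom) were alternatives. CPM are TMM-scaled, and log2 CPM has a prior count of 2. Correlations were tested by two-sided exact permutation over all orders of the libraries. The members, the gene lists and the tests were chosen with earlier results of these data known. Named genes are the 10 members, the 3 genes of smallest p in each pathway list, and the 3 genes most like a member, some of which are not reported here. Jag2, Hey2, Nrarp, Rbpj, Lfng, Mfng, Psenen and Ncstn were named after their values were seen. The level of GC-rich genes was added after the data were seen. Its covariate and the leave-out settings of the pairs of members are added alternatives.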

Additional observations from a re-analysis of the deposited data

Results flagged for a closer look

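In 20 groups of 4 values (10 genes in each group of mice), 3 held a library that stood apart from the other 3 by Dixon's 95% critical value for the gap over the whole range, which chance passes in about 1 in 20 groups. Notch4 was at 10.7 CPM in doxorubicin 2 (gap over range 0.864), against 6.12 to 6.74 CPM in the other doxorubicin libraries. Hey1 was at 5.82 CPM in doxorubicin 4 (gap over range 0.890), against 7.84 to 8.09 CPM in the other doxorubicin libraries, and it still lay above all vehicle libraries. Dll4 was at 5.66 CPM in vehicle 1 (gap over range 0.959), against 3.17 to 3.27 CPM in the other vehicle libraries.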

How the results depend on the processing

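The log2 fold changes of Hey1, Heyl, Notch3 and Dll4 were above 0 in 16 of 16 alternatives and that of Notch4 in 15. Those of Notch1 (12 of 16), Jag1 (12), Dll1 (13), Notch2 (10) and Hes1 (6) were not. The number of the 10 genes above 0, 10 with all libraries, ran from 5 to 10 with 1 library left out and was 5 with the covariate for GC-rich genes. Genes called over the whole table, 0 in edgeR, were 29 in DESeq2 and 1 with no filter on low counts. Genes at an unadjusted p under 0.05, 913 in edgeR, ran from 621 to 1784 with 1 library left out (1784 without vehicle 4). For pathway genes the count past the threshold was 0 in each of 16 alternatives, and for the 80 marker relations it was 0 in each of 10, group-centred values included. Pairs of the 10 genes past the threshold numbered 1 with all libraries and ran from 0 to 1 with 1 left out. With the longest transcript as the length, 1 pair of neighbours in the order of levels differed in every library, against 3. The cause of these shifts was not tested.

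Replicate numbers are shared by the groups, but nothing in the labels pairs the mice. The deviations of same-numbered libraries correlated at 0.34, -0.27, 0.43 and 0.09, and 5 of 8 libraries correlated best with their own number. With the replicate number as a block, genes at an unadjusted p under 0.05 numbered 1466, 0 passed the adjusted threshold, and Hey1 had a log2 fold change of 0.73. Depth limited Dll1 and Dll4 most, with 49 to 102 and 70 to 157 counts in a library.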
